A study of Mus musculus with 8 samples.

Results

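Mitochondrial respiratory complex I was examined in wire-injured carotid arteries through the 42 genes that the array names with the prefix Nduf, of 23830 genes tested. The members were all noncontrol probes with such a name, 50 of 55681 probes, and each gene was represented by its brightest probe. The arteries came from 4 miR-126-/-/ApoE-/- mice, which lack the microRNA miR-126, and from 4 miR-126+/+/ApoE-/- mice, which carry it. All 8 mice were also deficient in ApoE, were female, 6 weeks old and of mixed genetic background, ate a western-type diet, and gave the injured artery 14 days after the wire had been passed. Each mouse gave 1 single-colour Agilent array, made from 100 ng of total RNA. The labels give no cell type in which miR-126 was removed and describe no dissection of the vessel wall from the tissue around it, so the values are for whole bulk tissue. No probe in the files is named for miR-126 itself, so the genotype rests on the labels.

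Complex I is the entry point of the respiratory chain: it takes electrons from NADH, passes them along a chain of iron-sulfur clusters to ubiquinone, and pumps protons across the inner mitochondrial membrane. Its N module binds NADH, its Q module reduces ubiquinone, and a membrane arm with a proximal and a distal part carries the proton pumps. Core subunits, found from bacteria to mammals, do the chemistry, accessory subunits surround them, and assembly factors help to build the complex without staying in it. The core subunits of the membrane arm are encoded by mitochondrial DNA and the rest by nuclear genes. The abundance of the complex is high in cells rich in mitochondria, such as heart muscle, slow skeletal muscle and brown fat.

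The 42 genes lie on 16 chromosomes, with at most 5 on any of them, so they are not one gene cluster. Promoters from RefSeq (build GRCm38.p6, 250 bases before to 50 after the start site) were available for 37 of the 42. Of these promoters, 4 genes' are shown because they hold the motifs of transcription factors known to act on nuclear respiratory genes and because those genes span the range of differences, with Ndufs3 and Ndufa5 among the largest and Ndufaf4 near 0. Capitals mark motif matches on either strand, and each promoter reads 5′ to 3′ along its gene. Ndufa5 has another listed start site, from which the same NRF1 letters lie at -190, and that promoter is not printed. The letters searched were GCGCANGCG for NRF1, CCGGAAG for ETS factors such as GABP, and AAGATGGC for YY1.
Ndufs3, chr2:90904672-90904971, minus strand, with the ETS letters starting at -27 and on the opposite strand at 2: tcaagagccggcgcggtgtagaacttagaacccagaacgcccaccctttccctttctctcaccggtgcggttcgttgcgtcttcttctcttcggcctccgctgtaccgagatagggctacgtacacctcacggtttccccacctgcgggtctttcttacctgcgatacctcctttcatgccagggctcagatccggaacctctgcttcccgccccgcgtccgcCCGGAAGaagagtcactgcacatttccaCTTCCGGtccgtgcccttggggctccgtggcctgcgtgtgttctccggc
Ndufa5, chr6:24527641-24527940, minus strand, with the NRF1 letters at -26: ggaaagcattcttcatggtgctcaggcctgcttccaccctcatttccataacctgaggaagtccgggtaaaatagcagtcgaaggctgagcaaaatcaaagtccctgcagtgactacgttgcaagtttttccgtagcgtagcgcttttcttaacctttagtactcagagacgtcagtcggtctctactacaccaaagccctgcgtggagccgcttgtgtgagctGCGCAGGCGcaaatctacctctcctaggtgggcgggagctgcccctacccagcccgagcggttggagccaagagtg
Ndufc1, chr3:51408906-51409205, minus strand, with the YY1 letters at 23: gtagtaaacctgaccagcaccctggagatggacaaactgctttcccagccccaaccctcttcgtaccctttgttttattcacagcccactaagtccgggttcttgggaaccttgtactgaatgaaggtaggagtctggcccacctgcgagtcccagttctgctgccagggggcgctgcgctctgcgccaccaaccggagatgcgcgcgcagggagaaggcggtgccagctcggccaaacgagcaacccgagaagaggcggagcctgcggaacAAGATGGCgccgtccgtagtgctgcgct
Ndufaf4, chr4:24897833-24898132, plus strand, with the NRF1 letters on both strands, overlapping, at -113 and -112: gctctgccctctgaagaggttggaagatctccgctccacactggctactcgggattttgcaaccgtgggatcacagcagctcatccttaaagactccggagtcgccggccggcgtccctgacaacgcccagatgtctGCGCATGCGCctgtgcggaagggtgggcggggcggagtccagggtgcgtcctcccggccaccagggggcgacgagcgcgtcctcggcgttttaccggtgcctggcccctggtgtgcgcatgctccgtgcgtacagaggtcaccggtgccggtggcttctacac
The NRF1 letters stood in the promoter of 9 of 37 members (24.3%), against 7.03% of the 27025 genes with a promoter in the table. The ETS letters stood in 5 members (13.5%), against 9.93% of all genes, and the YY1 letters in 7 (18.9%), against 3.19%. Members' promoters were richer in G and C, at a median of 59.3% against 52.7% over all promoters. Members with and without these letters had like genotype differences. The median difference was 0.25 log2 units over the 20 members with any of the motifs and 0.25 over the 17 with none. A match is a description of letters and says nothing of binding.

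The Nduf genes had higher values in miR-126-/- arteries as a group of small differences, none of which passed the test. Values are the log2 ratio of the scanner's processed signal to its 75th percentile on the same array, and each difference is miR-126-/- minus miR-126+/+ with its standard error (SE). Of the 42 members, 40 had a higher fitted value in miR-126-/- arteries and 2 a lower one, against 50.7% higher among all genes tested. The median difference was 0.26 log2 units, about 1.2-fold, against 0.00 over all genes tested, with a range of -0.21 to 0.61. With limma and Benjamini-Hochberg adjustment over all 23830 genes, 0 of 42 members passed an adjusted p of 0.05, and their adjusted p ran from 0.235 to 0.984. Over all genes, 30 passed (0.126%), a count that ran from 0 without miR-126-/- 2 to 71 without miR-126+/+ 4. At an unadjusted p under 0.05, 22 members were higher, against 6.63% of all genes, and 0 were lower, against 3.61%. All 4 miR-126-/- values stood above all 4 miR-126+/+ values for 14 members, against 3.97% of all genes, and the reverse held for 0 members, against 2.44%. Without miR-126+/+ 1 the count of 22 became 14, while all genes at an unadjusted p under 0.05, in either direction, went from 2440 to 1918. Without miR-126-/- 1 the count of 14 without overlap became 25. Separation is easier to reach with fewer arrays, and the share of all genes without miR-126-/- 1 is not given, so 25 does not compare directly with 14. The members share each mouse's tissue, RNA and array, so these counts are not 42 independent observations. In bulk tissue, fewer cells of a type and less RNA per cell cannot be told apart. All 4 miR-126-/- arrays also lay in one row of the slide and all 4 miR-126+/+ arrays in the other, so the row and the genotype cannot be told apart.

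**Figure D1:**
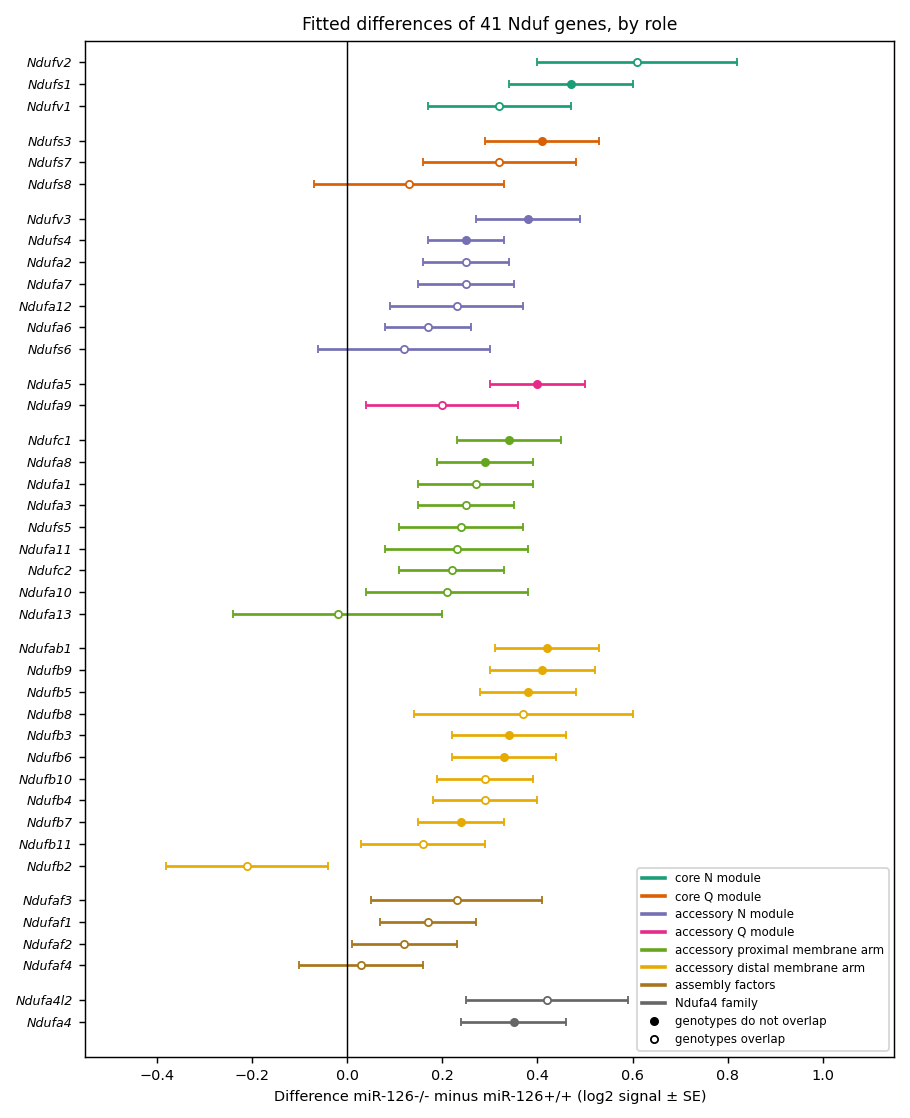
Fitted difference of 41 of the 42 Nduf genes, miR-126-/- minus miR-126+/+, on the log2 scale (horizontal axis), with bars of 1 SE, grouped and coloured by role. Filled points mark the 14 genes whose genotypes do not overlap; 39 points lie right of 0, and Ndufa13 (-0.02) and Ndufb2 (-0.21) lie left of it.

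The core subunits of the N module hold the site where NADH is oxidised, and all 3 had higher values in miR-126-/- arteries, with a median difference of 0.47. Ndufs1, the large iron-sulfur subunit, measured by a probe at chr1:63190360-63190419 (mm9, minus strand), had log2 values of 4.44, 4.50, 4.87 and 4.77 in miR-126-/- mice, compared with 4.00, 4.28, 4.07 and 4.34 in miR-126+/+ mice. The genotypes did not overlap, and the difference was 0.47 ± 0.13 (SE, n = 4 each, limma adjusted p = 0.264). Ndufv2, an iron-sulfur subunit beside the flavin site (probe at chr17:66428794-66428853, mm9, minus strand), had 4.53, 4.59, 4.82 and 4.65 in miR-126-/- mice, compared with 3.63, 4.57, 3.77 and 4.22 in miR-126+/+ mice. The miR-126+/+ values were spread widely, with an SD of 0.43 against 0.12 in miR-126-/- arteries, and miR-126+/+ 2 lay within the miR-126-/- range. The difference of Ndufv2, 0.61 ± 0.21, had the greatest size of the 42 but an adjusted p of 0.353. Ndufv1, which binds NADH and the flavin, had 5.32, 5.35, 4.94 and 5.54 in miR-126-/- mice, compared with 4.88, 4.74, 5.04 and 5.19 in miR-126+/+ mice. Here the groups overlapped through miR-126-/- 3, the array that was highest for most other members, and the difference was 0.32 ± 0.15 (adjusted p = 0.535).

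The core subunits of the Q module carry electrons to ubiquinone, and the 3 described here had higher fitted values in miR-126-/- arteries. Ndufs3, whose promoter is printed above, had 5.01, 5.14, 5.41 and 5.31 in miR-126-/- mice, compared with 4.61, 4.89, 4.82 and 4.93 in miR-126+/+ mice. The groups did not overlap, and the difference was 0.41 ± 0.12 (adjusted p = 0.289). Ndufs7, which holds the last iron-sulfur cluster before ubiquinone, had 5.01, 5.25, 5.59 and 5.26 in miR-126-/- arteries, against 4.81, 4.89 and 5.17 on miR-126+/+ 1, 3 and 4. Its spot on miR-126+/+ 2 carried an outlier mark and was left out, so the difference of 0.32 ± 0.16 (adjusted p = 0.581) rests on 7 arrays. Ndufs8, another iron-sulfur subunit, had 2.31, 2.81, 3.21 and 3.0 in miR-126-/- mice, compared with 2.47, 2.86, 2.67 and 2.83 in miR-126+/+ mice. Its miR-126-/- values spanned the whole miR-126+/+ range, and the difference was 0.13 ± 0.20 (adjusted p = 0.892). It was 0.30 without miR-126-/- 1, 0.00 without miR-126-/- 3, 0.07 without miR-126-/- 4 and 0.05 without miR-126+/+ 1.

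**Figure D2:**
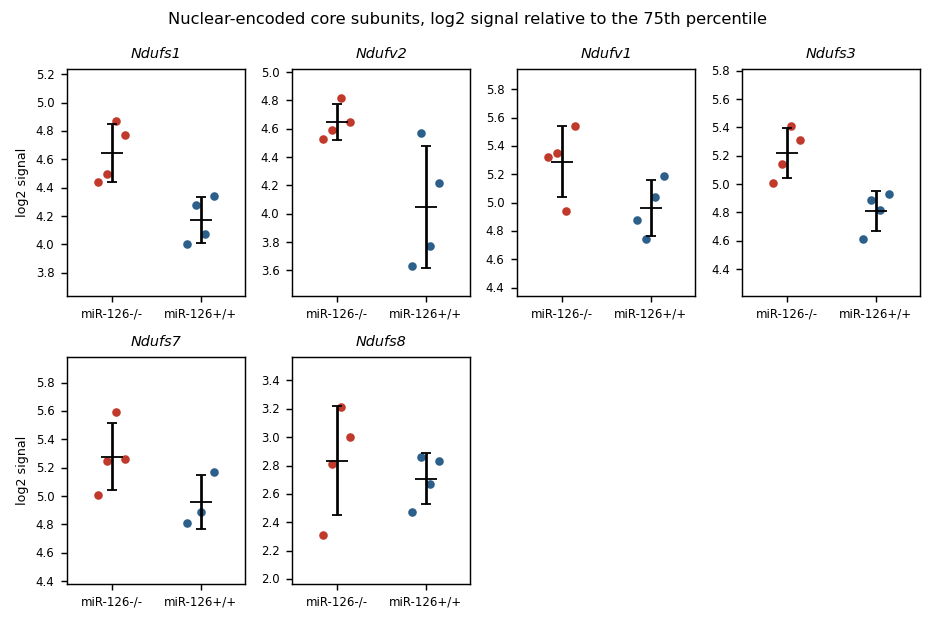
Log2 signal scaled to the 75th percentile (vertical axis) of 6 nuclear-encoded core subunits, 1 point per array, with miR-126-/- left and miR-126+/+ right. Bars show mean and SD; every panel spans the same number of log2 units. The 2 sets of points separate for Ndufs1 and Ndufs3, and overlap for the others.

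The accessory subunits of the N module, 7 of 7, had higher fitted values in miR-126-/- arteries, with a median of 0.25. Of them 4 were higher at an unadjusted p under 0.05, against 6.63% of all genes. Ndufv3 had 5.98, 6.12, 6.39 and 6.07 in miR-126-/- mice, compared with 5.63, 5.80, 5.79 and 5.80 in miR-126+/+ mice, a difference of 0.38 ± 0.11 (adjusted p = 0.27). Ndufs4, a subunit whose loss causes a Leigh-like brain disease in mice, had 3.78, 3.81, 3.94 and 3.93 in miR-126-/- mice, compared with 3.54, 3.69, 3.63 and 3.58 in miR-126+/+ mice, a difference of 0.25 ± 0.08 (adjusted p = 0.335). Both genes separated the genotypes, and Ndufs4 did so with small spread, at an SD of 0.08 in miR-126-/- and 0.06 in miR-126+/+ arteries. Ndufa2, also of this module, had 5.70, 5.90, 5.98 and 5.85 in miR-126-/- mice, compared with 5.56, 5.54, 5.73 and 5.58 in miR-126+/+ mice (0.25 ± 0.09, adjusted p = 0.412), with 1 value of each genotype in the range of the other. The remaining 4, Ndufa7, Ndufa12, Ndufa6 and Ndufs6, differed by 0.25, 0.23, 0.17 and 0.12.

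In the Q module, the accessory subunit Ndufa5 had the smallest p of all members. Its probe at chr6:24468666-24468725 (mm9, minus strand) gave 5.09, 5.24, 5.44 and 5.35 in miR-126-/- mice, compared with 4.83, 4.99, 4.87 and 4.83 in miR-126+/+ mice. The difference was 0.40 ± 0.10, with a limma p of 0.00419 and an adjusted p of 0.235. A dimmer probe of Ndufa5 differed by 0.34. Ndufa9, which binds a nucleotide cofactor, had 3.45, 3.34, 4.00 and 3.68 in miR-126-/- mice, compared with 3.24, 3.53, 3.39 and 3.54 in miR-126+/+ mice, and the difference of 0.20 ± 0.16 was close to its error (adjusted p = 0.757) and was 0.07 without miR-126-/- 3.

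Of the accessory subunits of the proximal membrane arm, 8 of 9 had higher fitted values in miR-126-/- arteries (median 0.24). Of them 3 were higher at an unadjusted p under 0.05, against 6.63% of all genes. Ndufc1 had 4.86, 4.96, 5.28 and 5.16 in miR-126-/- mice, compared with 4.65, 4.81, 4.79 and 4.66 in miR-126+/+ mice (0.34 ± 0.11, adjusted p = 0.345). Ndufa8 had 3.13, 3.19, 3.43 and 3.37 in miR-126-/- mice, compared with 2.90, 3.07, 3.09 and 2.91 in miR-126+/+ mice (0.29 ± 0.10, adjusted p = 0.39). Both separated the genotypes. Ndufa3 had 5.35, 5.56, 5.65 and 5.66 in miR-126-/- mice, compared with 5.27, 5.25, 5.45 and 5.26 in miR-126+/+ mice (0.25 ± 0.10, adjusted p = 0.459), with miR-126+/+ 3 above the lowest miR-126-/- value. The one member of this arm without a higher fitted value was Ndufa13, a subunit also described as a cell death regulator. It had 6.85, 6.92, 6.04 and 6.96 in miR-126-/- mice, compared with 6.77, 6.46, 6.86 and 6.78 in miR-126+/+ mice. Its difference of -0.02 ± 0.22 (adjusted p = 0.984) turned on miR-126-/- 3, and was 0.20 without that array. The other 5 of this arm, Ndufa1, Ndufc2, Ndufs5, Ndufa11 and Ndufa10, differed by 0.21 to 0.27.

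Among the 11 accessory subunits of the distal membrane arm, 10 had higher fitted values in miR-126-/- arteries (median 0.33). Of them 8 were higher at an unadjusted p under 0.05, against 6.63% of all genes, and 6 separated the genotypes, against 3.97%. Ndufab1 is the mitochondrial acyl carrier protein, which also serves fatty acid and lipoic acid synthesis. It had 0.51, 0.53, 0.89 and 0.80 in miR-126-/- mice, compared with 0.18, 0.33, 0.30 and 0.22 in miR-126+/+ mice (0.42 ± 0.11, adjusted p = 0.247). Ndufb9 had 5.65, 5.74, 6.00 and 5.84 in miR-126-/- mice, compared with 5.25, 5.50, 5.36 and 5.49 in miR-126+/+ mice (0.41 ± 0.11, adjusted p = 0.251). Ndufb5 had 4.03, 4.07, 4.29 and 4.15 in miR-126-/- mice, compared with 3.68, 3.95, 3.65 and 3.75 in miR-126+/+ mice (0.38 ± 0.10, adjusted p = 0.26). In each of the 3, miR-126-/- 3 was the highest array and no value crossed into the other genotype's range. Ndufb2 went the other way, with 4.67, 4.01, 4.68 and 4.71 in miR-126-/- mice, compared with 4.79, 4.82, 4.80 and 4.50 in miR-126+/+ mice, a difference of -0.21 ± 0.17 (adjusted p = 0.76), which was -0.05 without miR-126-/- 2. That probe was designed on an Ensembl transcript and covers 1090 bases of the genome, at chr6:39548336-39549425 (mm9, plus strand). A dimmer Ndufb2 probe on the RefSeq transcript, at chr6:39549396-39549455, had 3.11, 3.72, 3.85 and 3.80 in miR-126-/- mice, compared with 2.76, 3.54, 3.70 and 2.97 in miR-126+/+ mice, a difference of 0.38 ± 0.25. The mean of both probes differed by 0.08, so the direction for Ndufb2 depended on the probe. The other members of this arm, Ndufb8, Ndufb3, Ndufb6, Ndufb10, Ndufb4, Ndufb7 and Ndufb11, differed by 0.16 to 0.37.

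A second probe was measured for 8 members, and its difference had the same sign as the first in 5. Besides Ndufb2, the exceptions were Ndufb5 and the X-linked subunit Ndufb11. The second Ndufb5 probe differed by -0.04 ± 0.13, against 0.38 for the brighter one. The Ndufb11 probes differed by 0.16 ± 0.13 for the brighter and by -0.14 ± 0.11 for the dimmer. The brighter Ndufb11 probe read 5.29, 5.66, 5.79 and 5.80 in miR-126-/- mice, compared with 5.48, 5.57, 5.35 and 5.52 in miR-126+/+ mice, with miR-126-/- 1 the lowest of all 8, and its difference was 0.27 without miR-126-/- 1 and 0.10 without miR-126-/- 4. Over single probes, 46 of 50 were higher in miR-126-/- arteries and 4 lower.

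The assembly factors with the Nduf prefix, 4 of 4, had higher fitted values in miR-126-/- arteries, with a median of 0.14. The count higher at an unadjusted p under 0.05 was 0, against 6.63% of all genes. With so few genes, 0 lies near that share. Ndufaf1, which acts in building the membrane arm, had 1.45, 1.42, 1.74 and 1.55 in miR-126-/- mice, compared with 1.37, 1.49, 1.32 and 1.28 in miR-126+/+ mice (0.17 ± 0.10, adjusted p = 0.64), and the difference was 0.11 without miR-126-/- 3. Ndufaf3, which works with Ndufaf4 on the Q module, had 0.98, 1.01, 1.11 and 1.10 in miR-126-/- mice, compared with 1.02, 0.27, 0.96 and 1.04 in miR-126+/+ mice, and its difference of 0.23 ± 0.18 rested on miR-126+/+ 2, being 0.05 without it. Ndufaf2, a paralog of the subunit Ndufa12, had 1.61, 1.83, 2.03 and 2.03 in miR-126-/- mice, compared with 1.77, 1.78, 1.77 and 1.72 in miR-126+/+ mice (0.12 ± 0.11), with 0.20 without miR-126-/- 1 and 0.06 without either miR-126-/- 3 or miR-126-/- 4. All 3 overlapped between genotypes. Ndufaf4, whose promoter holds the full NRF1 palindrome printed above, differed by 0.03 ± 0.13, and its second probe by 0.04. The array lists a further 4 assembly factors, Ndufaf5 to Ndufaf8, under older clone names. Over all 8, 7 were higher in miR-126-/- arteries, with a median of 0.11. Of these, 0 were higher at an unadjusted p under 0.05, again near the 6.63% of all genes for so few genes. Ndufaf5, Ndufaf6, Ndufaf7 and Ndufaf8 differed by -0.19 ± 0.14, 0.06 ± 0.1, 0.11 ± 0.13 and 0.17 ± 0.08. Ndufaf8 was the 1 of the 8 whose genotypes did not overlap, against 3.97% of all genes. Whether the assembly factors differed less than the subunits was not tested.

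Ndufa4 was long counted with complex I and was later placed in complex IV, and its relative Ndufa4l2 is known as a gene induced by low oxygen. Ndufa4 had 4.51, 4.56, 4.80 and 4.73 in miR-126-/- mice, compared with 4.25, 4.49, 4.18 and 4.30 in miR-126+/+ mice (0.35 ± 0.11, adjusted p = 0.308), without overlap. Ndufa4l2 had 2.78, 3.04, 3.03 and 2.97 in miR-126-/- mice, compared with 2.34, 2.19, 2.98 and 2.63 in miR-126+/+ mice (0.42 ± 0.17, adjusted p = 0.467). In it miR-126+/+ 3 reached the miR-126-/- range, and miR-126-/- 3 did not stand above the other miR-126-/- arrays. Leaving out both genes gave a median of 0.25 over the other 40 members.

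The members also varied together across the arrays of a genotype. With each gene centred on its own mean over the 8 arrays, the median over the members was -0.01, 0.08, 0.34 and 0.23 on miR-126-/- 1 to 4, against -0.24, -0.06, -0.14 and -0.12 on miR-126+/+ 1 to 4. The array medians did not overlap, at 0.16 ± 0.16 in miR-126-/- and -0.14 ± 0.07 in miR-126+/+ arteries (mean ± SD, n = 4 each). miR-126-/- 3 was the highest of all 8 arrays for 29 of 42 members, and miR-126-/- 4 for 11. At the other end, miR-126+/+ 1 was the lowest for 23 members. Within the miR-126-/- arteries, miR-126-/- 1 was the lowest for 32 members. The SD over arrays was greater in miR-126-/- than in miR-126+/+ arteries for 36 members, with medians of 0.19 and 0.11.

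**Figure D3:**
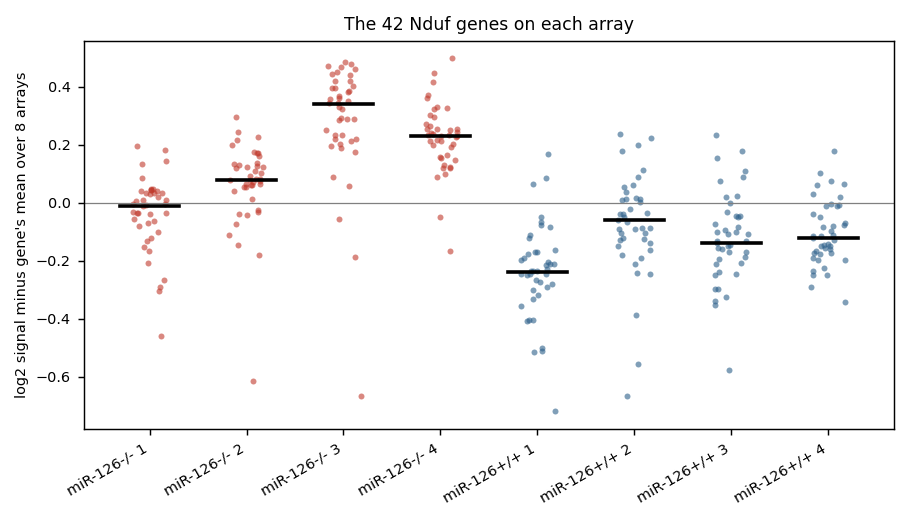
Each point is 1 of the 42 Nduf genes on 1 array, as log2 signal minus that gene's mean over the 8 arrays (vertical axis), and black bars are the array medians. The miR-126-/- arrays stand left; their medians run from -0.01 to 0.34, above the miR-126+/+ medians of -0.24 to -0.06.

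The mitochondrially encoded subunits are read from another genome and were not used to choose the members. The array names 7 of them, and 6 had higher fitted values in miR-126-/- arteries, with a median of 0.48. Of them 5 were higher at an unadjusted p under 0.05, against 6.63% of all genes, while 0 passed the adjusted threshold (lowest limma adjusted p 0.294). ND2 (mt-Nd2), a pump subunit, had 6.16, 6.58, 6.88 and 7.05 in miR-126-/- mice, compared with 5.87, 6.10, 6.14 and 6.01 in miR-126+/+ mice, without overlap (0.64 ± 0.19). ND1 (mt-Nd1), which forms part of the ubiquinone channel, had 3.68, 4.20, 4.61 and 4.54 in miR-126-/- mice, compared with 3.50, 3.74, 3.67 and 3.81 in miR-126+/+ mice (0.58 ± 0.20), and only miR-126-/- 1 reached into the miR-126+/+ range. ND5 (mt-Nd5), the outermost pump, had 4.28, 4.50, 4.75 and 4.81 in miR-126-/- mice, compared with 3.95, 4.20, 4.28 and 4.32 in miR-126+/+ mice (0.40 ± 0.14). In ND1, ND2 and ND5 the lowest miR-126-/- array was miR-126-/- 1, as for most nuclear members. ND3 and ND4L differed by 0.54 ± 0.19 and 0.48 ± 0.15, but the files place both probes on chromosome 1, so a near-identical nuclear copy could share their signal and their values are uncertain. Both are among the 5 genes counted at an unadjusted p under 0.05, and the median of 0.48 is the ND4L value, so that count and median share this uncertainty. ND4 differed by 0.21 ± 0.12, and its lowest miR-126-/- array was not miR-126-/- 1 (6.67) but miR-126-/- 3 (6.4). ND6 (mt-Nd6), the one subunit encoded on the light strand, had -0.35, -0.04, -0.18 and -0.26 in miR-126-/- mice, compared with 0.02, -0.28, 0.14 and -0.42 in miR-126+/+ mice, a difference of -0.07 ± 0.14 with full overlap. The other mitochondrial subunits come from long shared transcripts of the heavy strand and are not independent of each other.

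**Figure D4:**
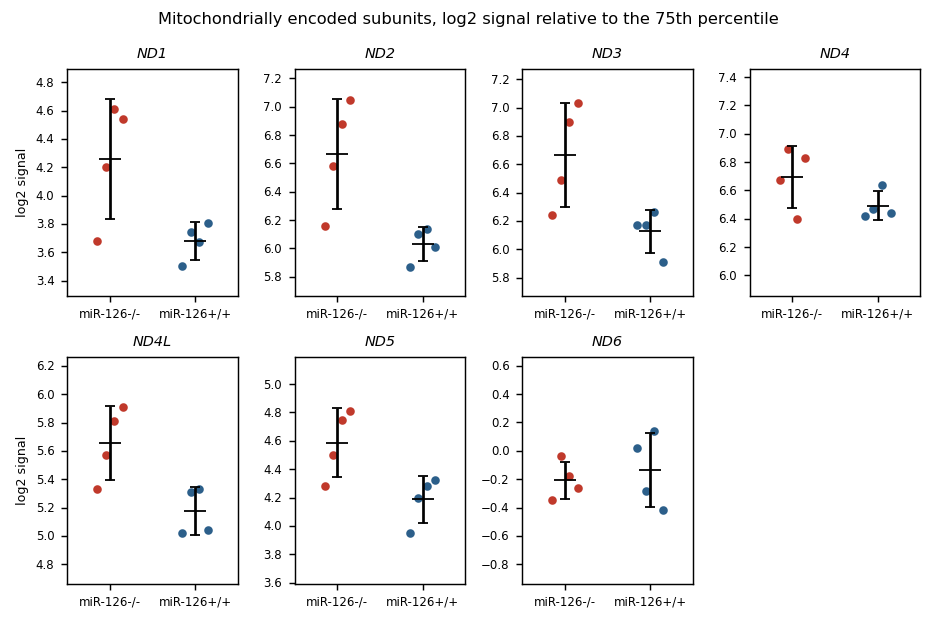
Log2 signal scaled to the 75th percentile (vertical axis) of the 7 mitochondrially encoded subunits, 1 point per array, with miR-126-/- left and miR-126+/+ right, and bars of mean and SD. The sets separate for ND2 (difference 0.64) and overlap fully for ND6 (-0.07).

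Other nuclear genes of complex I do not carry the prefix on the array. Of 19 measured, including Ndufaf5 to Ndufaf8, 17 were higher in miR-126-/- arteries, with a median of 0.17. At an unadjusted p under 0.05, 3 were higher, against 6.63% of all genes. Whether this set differed less than the Nduf genes was not tested. Foxred1, an assembly factor, had 1.70, 1.88, 2.29 and 2.10 in miR-126-/- mice, compared with 1.38, 1.53, 1.51 and 1.74 in miR-126+/+ mice (0.46 ± 0.15, adjusted p = 0.326). Nubpl, which delivers iron-sulfur clusters to the complex, differed by 0.34 ± 0.11, and Ecsit, an assembly factor with a second role in innate immune signalling, by 0.25 ± 0.10. All 3 genes overlapped between the genotypes, Foxred1 through miR-126-/- 1 and miR-126+/+ 4.

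Regulators of mitochondrial biogenesis were 13 of 15 higher in miR-126-/- arteries, with a median of 0.17. At an unadjusted p under 0.05, 3 were higher, against 6.63% of all genes, while 0 passed the adjusted threshold. Ppargc1b, a coactivator of respiratory genes, had -2.48, -2.29, -2.56 and -3.61 in miR-126-/- mice, compared with -4.38, -3.58, -4.77 and -3.40 in miR-126+/+ mice (1.30 ± 0.39, adjusted p = 0.294), and it was well above background on 7 of the 8 arrays. Ppargc1a, the related coactivator induced in brown fat, had 0.03, 0.01, -0.07 and -0.40 in miR-126-/- mice, compared with -1.06, -0.30, -1.09 and -0.25 in miR-126+/+ mice (0.57 ± 0.23, adjusted p = 0.453). Both overlapped, since miR-126-/- 4 lay among the miR-126+/+ values. Esrra, a nuclear receptor that these coactivators drive, had 3.1, 3.05, 3.28 and 3.22 in miR-126-/- mice, compared with 2.76, 2.91, 2.91 and 2.98 in miR-126+/+ mice, without overlap (0.28 ± 0.09, adjusted p = 0.345). The factors whose letters were searched in the promoters differed little, with Nrf1 at 0.01, Gabpa at 0.10 and Yy1 at -0.19, and Tfam, which packages mitochondrial DNA, at 0.01.

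The other respiratory complexes gave counts and a median close to those of complex I, and the difference between the sets was not tested. Of 38 genes of complexes II to V, 36 had higher values in miR-126-/- arteries, with a median of 0.27. At an unadjusted p under 0.05, 19 were higher, beside 22 of 42 Nduf genes and 6.63% of all genes. Complex III, with 9 of 9 higher and a median of 0.42, had the greatest median of the 4 and complex V, with 13 of 15 higher and a median of 0.17, the smallest. The array medians of complexes II to V were -0.02, 0.05, 0.28 and 0.22 on miR-126-/- 1 to 4, against -0.26, -0.06, -0.07 and -0.15 on miR-126+/+ 1 to 4. The 4 miR-126-/- arrays stood in the same order as for the Nduf genes, and miR-126+/+ 1 was again the lowest.

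Marker genes of fat differed in the same direction as the Nduf genes. All 12 adipocyte markers were higher in miR-126-/- arteries, with a median difference of 1.33, and their summed linear level, as a multiple of the array's 75th percentile, was 654 to 1130 in miR-126-/- mice, compared with 302 to 657 in miR-126+/+ mice. Of 8 brown adipocyte markers 7 were tested and all 7 were higher (median 1.70), with a summed level of 110 to 229 in miR-126-/- mice, compared with 21.4 to 83.1 in miR-126+/+ mice. Ucp1, the uncoupling protein that defines brown fat, differed by 2.19 ± 1.01 (limma adjusted p = 0.523). Its values on miR-126+/+ 2 (4.01) and miR-126+/+ 3 (3.09) lay within the miR-126-/- range of 2.82 to 5.28. Cpt1b differed by 1.86 ± 0.26 (limma adjusted p = 0.0562), and Dio2 by 0.19 ± 0.28 (limma adjusted p = 0.88). The array with the highest brown adipocyte sum, miR-126-/- 3, was also the highest for the Nduf genes, and the one with the lowest, miR-126+/+ 1, was the lowest for them. The other arrays stood in the same order by brown adipocyte sum and by Nduf median, except that miR-126-/- 1 and miR-126-/- 2 changed places. Among miR-126-/- arrays the brown adipocyte sum was lowest on miR-126-/- 2 (110), but the Nduf median on miR-126-/- 1. The adipocyte sum was highest on miR-126-/- 4 (1130) and lowest on miR-126+/+ 3 (302). With the adipocyte markers as a covariate, 30 of 42 members had a fitted difference above 0, against 52.7% of all genes, with a median of 0.14, and 0 met an unadjusted p under 0.05, against 3.18% of all genes. With the brown adipocyte markers, an alternative chosen after seeing the data, 31 members were above 0, against 52.3% of all genes, with a median of 0.11, and 0 met it, against 2.69%. These marker lists themselves differed between the genotypes, so the covariates take up part of the genotype term, and the part of fat tissue in the Nduf result was not tested further.

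Skeletal muscle genes varied between arrays in both genotypes, with a summed level of 6.52 to 123 in miR-126-/- mice, compared with 3.81 to 126 in miR-126+/+ mice. The highest were miR-126-/- 1, which also had the highest heart and slow muscle sum (36.1), and miR-126+/+ 2. Without these arrays 40 of 42 members were higher in miR-126-/- arteries, with a median of 0.34, and 23 met an unadjusted p under 0.05, against 5.75% of all genes. The genotypes did not overlap for 28 members, against 8.57% of all genes with 3 arrays a group. Over all 8 arrays, heart and slow muscle markers were higher in miR-126-/- arteries for 7 of 7 tested, with a median of 0.58. Of these markers 0 were higher at an unadjusted p under 0.05, against 6.63% of all genes. Their sum was 36.1 on miR-126-/- 1, but 1.92, 1.86 and 2.04 on miR-126-/- 2 to 4. It was 1.68, 11.3, 4.22 and 1.23 on miR-126+/+ 1 to 4, so only miR-126-/- 1 stood above the miR-126+/+ range. Markers of the vessel wall were present on every array. Of smooth muscle markers 7 of 8 were higher in miR-126-/- arteries (median 0.21), with sums of 350 to 571 in miR-126-/- and 370 to 437 in miR-126+/+ arteries. Of endothelial markers 7 of 8 were higher (median 0.24, beside 0.26 for the Nduf genes), with sums of 59.5 to 82.2 in miR-126-/- and 56.8 to 72.2 in miR-126+/+ arteries. Macrophage markers were higher for 2 of 7 (median -0.15), with sums of 193 to 280 in miR-126-/- and 194 to 300 in miR-126+/+ arteries. Fibroblast markers were higher for 4 of 8 (median 0.01), with sums of 1320 to 1440 in miR-126-/- and 1260 to 1740 in miR-126+/+ arteries, and among them Dcn, the proteoglycan decorin, differed by -0.84 ± 0.20 without overlap (limma adjusted p = 0.207). The part of these cell types in the Nduf result was not tested.

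**Figure D5:**
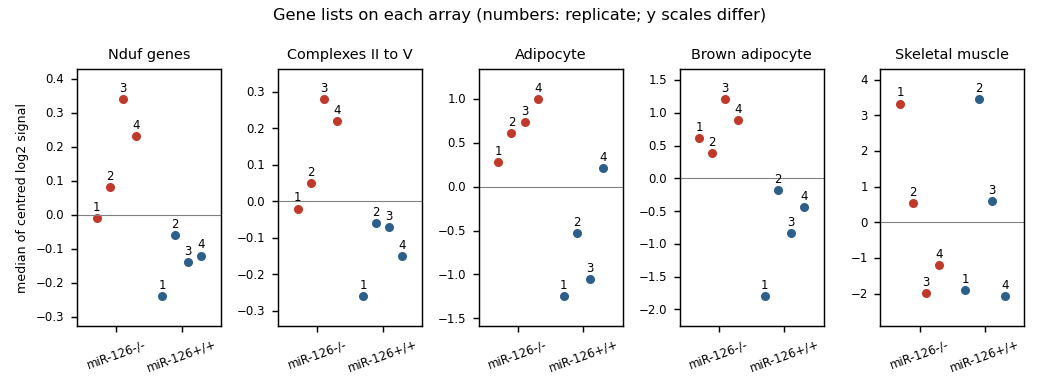
Median of centred log2 signal (vertical axis, scales differ) of 5 gene lists on each array, numbered by replicate, with miR-126-/- left and miR-126+/+ right. The Nduf genes and complexes II to V place the miR-126-/- arrays in the same order. miR-126-/- 3 is highest in Nduf genes (0.34) and brown adipocyte genes, and miR-126-/- 4 in adipocyte genes. Skeletal muscle genes peak on miR-126-/- 1 and miR-126+/+ 2.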

How the data were processed

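Gene expression was measured on 8 Agilent single-colour arrays of 1 slide, read with Agilent Feature Extraction 10.7.3.1 per the submitters' processing notes and the file headers. The deposited values used are processed signals, which per the file headers are linear intensity values after background subtraction. The value table deposited by the authors repeats these intensities unscaled. Positions are on mm9, per the file headers. Control spots, spots marked as outliers (146 to 216 per array) and the spots in rows 55 to 100 and columns 56 to 70 of miR-126-/- 4, an area of dim signal, were left out. No member probe lies in that area. The 75th percentile of the processed signal was 578.5 to 714.5 intensity units on miR-126-/- arrays and 518.2 to 736.1 on miR-126+/+ arrays, and 55.9 to 61.5% of probes were well above background. The number of arrays limits the precision.

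Values were scaled by each array's 75th percentile and taken as log2. Probes needed the scanner's mark for signal well above background on 3 or more of a genotype's 4 arrays, and the brightest probe stood for a gene. All 42 members passed, and 41 were above background on all 8 arrays (Ndufs7 on the 7 with a kept spot). Of all probes, 47.4% were named through RefSeq (GRCm38.p6), and the others kept the file's name. Genotypes, as the labels give them, were compared in R 4.3.3 by the lmFit and eBayes functions of limma 3.58.1 (two-sided, 6 residual degrees of freedom), adjusted over all genes. The 4 replicates of a genotype are separate mice, per the labels. Tested on simulated data for 23830 genes, the fit recovered 59.4% of genes changed by 1 log2 unit and 84.2% of those changed by 2, 100 genes of each per run, with 9.2 false calls per run. Standard errors are those of the fit. Python 3.11.15 with pandas 2.3.3 and matplotlib 3.10.9 read the files and drew the figures.

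The members, the gene lists and the role groups were chosen with earlier results of these data known. The members named with values per array were the core subunits except 1, which is not reported here, up to 3 per other role group by smallest p, Ndufa4, Ndufa4l2, Ndufab1, Ndufaf1, every member lower in miR-126-/- arteries and every member with a second probe of other sign, beside other complex I genes at an unadjusted p under 0.05 and the mitochondrially encoded ones. Named regulators, Ndufaf4 to Ndufaf8 and named marker genes were chosen after their values were seen. Alternatives covered background correction, normalization, filters, probes, array weights, covariates, a replicate block and leaving out arrays.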

Additional observations from a re-analysis of the deposited data

Results flagged for a closer look

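Over 51 groups of 4 values, from 25 named members and the array medians of all members, 7 held a value far from the other 3 by Dixon's criterion, where chance gives about 1 in 20. In miR-126-/- arteries, Ndufa13 was low on miR-126-/- 3, at a log2 signal of 6.04, and Ndufb2 was low on miR-126-/- 2, at 4.01. Those are the 2 members with a lower fitted value in miR-126-/- arteries. In miR-126+/+ arteries, Ndufb2 was low on miR-126+/+ 4, at 4.50, Ndufv3 on miR-126+/+ 1, at 5.63, and Ndufaf3 on miR-126+/+ 2, at 0.27. Ndufa3 was high on miR-126+/+ 3, at 5.45. Ndufaf2 was low on miR-126+/+ 4, at 1.72, but its other miR-126+/+ values were 1.77, 1.78 and 1.77. Dixon's criterion sets the gap against the range, so even a gap this small can meet it.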

How the results depend on the processing

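No Nduf gene passed the adjusted threshold under any of the 24 alternatives run, and the median difference stayed above 0 in all of them, with 0.22 to 0.32 when single arrays were left out. It was 0.14 with the adipocyte covariate and 0.11 with the brown adipocyte covariate. The count of members higher at an unadjusted p under 0.05 was 22 as reported, 0 with either of those covariates, and 14 to 27 without single arrays. In either direction, 2440 of all genes met this threshold as reported and 1918 without miR-126+/+ 1, which gave the count of 14. The count without overlap was 14 as reported, 22 with normexp background correction, 28 without miR-126-/- 1 and miR-126+/+ 2, which were highest in skeletal muscle genes, and 14 to 25 without single arrays. Separation is easier to reach with fewer arrays, so the counts with arrays left out do not compare directly with 14. The share of all genes without overlap under normexp is not given. Over all genes, 30 were called as reported, 12 with no filter, 12 with probes above background on all arrays, 11 with the mean of a gene's probes, 14 with every probe, 76 with array weights, 11 with the skeletal muscle covariate, 0 with the adipocyte or brown adipocyte covariate, and 0 without that pair of arrays. Leaving out single arrays gave 0 to 71: 6, 0, 7 and 15 without miR-126-/- 1 to 4, and 6, 3, 13 and 71 without miR-126+/+ 1 to 4. With the replicate number as a block, 0 genes were called over all genes and 18 members met the unadjusted threshold. Of all genes, 2232 met it with the block, in either direction, beside 2440 as reported. The labels do not say whether the numbers pair mice across genotypes. Deviations of same-numbered arrays correlated at 0.215, -0.307, -0.044 and 0.023. For differently numbered arrays the correlations ran from -0.338 to 0.421. So few arrays cannot settle whether the numbers pair mice. Of the 25 named members, 17 kept their direction in all 23 alternatives. Ndufb2 became 0.08 with the mean of its probes. Ndufa13 became 0.00 with array weights, 0.11 with the adipocyte and 0.41 with the brown adipocyte covariate, and -0.11 to 0.20 without single arrays (0.03 without miR-126+/+ 3). With the adipocyte covariate Ndufs7 became -0.06, Ndufs8 -0.37, Ndufa9 -0.10, Ndufaf2 -0.01 and Ndufb11 -0.13. With the brown adipocyte covariate Ndufv2 became -0.03, Ndufs7 -0.12, Ndufs8 -0.32 and Ndufa9 -0.22. The cause was not tested for any of these. The brown adipocyte covariate was chosen after seeing the data. The fit was tested on simulated data for differences of 1 and 2 log2 units only, which exceed those of all members, so its recovery at their size was not tested.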
